A study of Homo sapiens with 4 samples.

Results

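Islet and lung neuroendocrine transcription factors were measured in 2 human cell lines from neuroendocrine tumours, with and without knockdown of DAXX, a chaperone that loads a variant histone onto chromatin. The set has 9 named genes (NKX2-1, NKX2-2, PAX6, RFX6, FOXA1, FOXA2, GATA6, ISL1 and NEUROD1), taken as every probe set that the platform annotation assigns to 1 of these symbols alone. Probe sets were found for 8 of the 9 genes, 14 probe sets in all, out of 54613 probe sets and 19775 genes on the array. NEUROD1 was not analysed here. A probe set is a group of oligonucleotides that reads 1 stretch of transcript, and 5 of the 8 genes had more than 1.

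The arrays were 1-colour Affymetrix arrays of total RNA, 1 array per group: DAXX-KD NCI-H727, control NCI-H727, DAXX-KD QGP1 and control QGP1. By its labels NCI-H727 is a bronchial neuroendocrine tumour line and QGP1 a pancreatic one. DAXX-KD cells were electroporated with siRNA against DAXX and control cells with a universal negative control siRNA, at 50 nM in all 4 groups. The labels name 2 DAXX siRNAs without saying whether they were pooled, and they name no repeat cultures. Groups come from the sample titles. QGP1 also stands in the source field of the NCI-H727 samples, and the descriptions of all 4 samples speak of ALDH high QGP1 cells.

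These factors sit high in the programs that make endocrine cells from the embryonic gut tube. FOXA1, FOXA2 and GATA6 open chromatin in the endoderm that gives rise to lung and pancreas. NKX2-2, PAX6, RFX6, ISL1 and NEUROD1 act in the islet, where they drive endocrine fate and hormone genes, while NKX2-1 (also called TTF-1) directs lung and thyroid development and is a standard pathology marker of lung origin. Of the members, ISL1, PAX6 and NKX2-2 are used by pathologists as markers of pancreatic or other digestive origin in well-differentiated neuroendocrine tumours.

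The knockdown was seen in both lines. The brighter DAXX probe set read 6.14 in DAXX-KD NCI-H727 against 7.35 in its control, and 6.56 in DAXX-KD QGP1 against 8.52 in its control, all on the log2 scale, and the other DAXX probe set was 1.78-fold and 4.41-fold lower in the same lines. The level under which 40% of probe set means fall was 4.85. On every array 14 of 14 measured neuroendocrine markers, chromogranins and INSM1 among them, lay at or above it. So did 5 of 10 fibroblast and endothelial markers, 4 of 8 leukocyte markers and 3 of 7 pancreatic exocrine and ductal markers. Reaching this level therefore does not show that a marker is present. Between lines 2 of the 14 neuroendocrine markers were higher in NCI-H727 (UCHL1 by 4.27 and CHGA by 1.05). Another 6 were lower, led by the secretory granule chaperone SCG5 (-6.40) and the adhesion molecule NCAM1 (-2.64, called at 3 of 7 probe sets). By the brightest probe set of each gene, of 10 fibroblast and endothelial markers 2 were higher in NCI-H727 and 0 lower, of 8 leukocyte markers 2 and 0, and of 7 pancreatic exocrine and ductal markers 2 and 0, against 15.5% of all genes higher and 16.7% lower. The 6 genes were KDR (2.38) and CDH5 (0.85), LYZ (1.91) and CD3D (0.83), and the ductal keratin KRT19 (3.48) with CELA3A (0.66). CDH5 lay under the 4.85 level on all 4 arrays. PECAM1 was called higher at a dimmer probe set (0.63, limma adjusted p = 0.0492), while its brightest gave -0.73. A dimmer probe set of the collagen gene COL1A1, 1 of 5, was called lower at -4.18 (2.37 in DAXX-KD and 2.22 in control NCI-H727, against 6.53 in DAXX-KD and 6.42 in control QGP1; limma adjusted p = 0.000273), while its brightest gave 0.24. The part of these markers in the member results was not tested.

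Several tissue factors went against the tissue that the line labels give, and each statement on a line below goes by the label of the array. At probe set 211024_s_at the lung factor NKX2-1 was bright on the arrays labelled QGP1 and dim on those labelled NCI-H727. Its other probe set, 210673_x_at, did not show this (line difference 0.11). The islet factors RFX6 and NKX2-2 were bright on the arrays labelled NCI-H727. PAX6 and ISL1, also islet factors, were higher on the arrays labelled QGP1, as that label would have it. Whether line labels were exchanged was not tested. DAXX-KD and control arrays of the same labelled line correlated at 0.992 (NCI-H727) and 0.995 (QGP1) over all probe sets, and arrays of different labelled lines at 0.915 to 0.925.

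Between lines, 9 of the 14 member probe sets passed an adjusted p of 0.05 in limma, 3 higher and 6 lower in NCI-H727. No filter on level was used, and 12 of the 14 had a mean above the 4.85 level. Over all 54613 probe sets 26.5% passed, 12.1% higher and 14.4% lower. At least 3 apart on the log2 scale were 4 of the 14, against 2.1% of all probe sets. The fit held cell line and treatment, with 1 residual degree of freedom, and set 2 NCI-H727 arrays against 2 QGP1 arrays. Its p-values measure how alike the line difference was in DAXX-KD and control arrays, and hold no spread between cultures. Values are RNA levels of many cells together, in which fewer cells that make a transcript and less RNA per cell cannot be told apart. Whether these cells were an ALDH high fraction, as the descriptions may mean, is not settled by the titles.

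**Figure D1:**
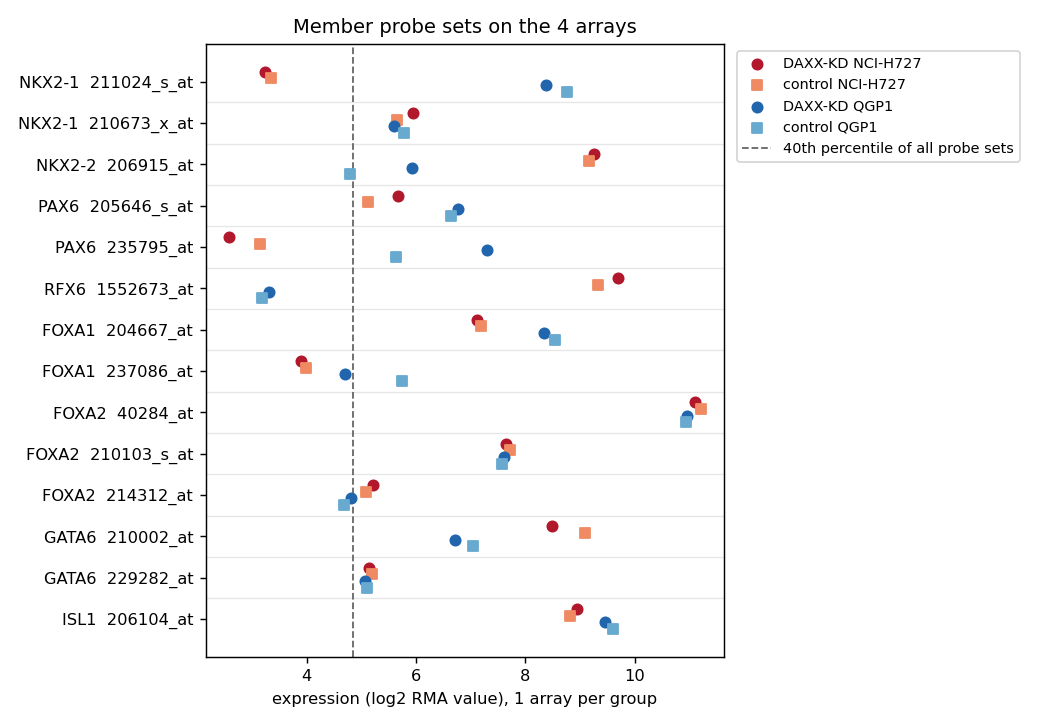
Expression (log2 RMA value, horizontal axis) of the 14 member probe sets on the 4 arrays, 1 point per array, with the 4.85 level as a dashed line. RFX6 and NKX2-2 are bright in both NCI-H727 arrays, the 211024_s_at probe set of NKX2-1 in both QGP1 arrays, and the FOXA2 points of each probe set lie close together.

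NKX2-1 gave the largest difference on the QGP1 side. Its probe set 211024_s_at read 3.23 in DAXX-KD NCI-H727 and 3.35 in control NCI-H727, against 8.38 in DAXX-KD QGP1 and 8.77 in control QGP1. Both NCI-H727 values lay under the 4.85 level, at percentiles 13.0 and 15.1 of their arrays, and the QGP1 values at percentiles 82.5 and 85.6. NCI-H727 was lower by 5.28 on the log2 scale (limma -5.28, SE 0.14, 95% interval -5.66 to -4.91, adjusted p = 0.000231), and since RMA compresses dim values no fold is given. The other NKX2-1 probe set, 210673_x_at, did not show it: it read 5.95 and 5.64 in DAXX-KD and control NCI-H727, against 5.59 and 5.78 in DAXX-KD and control QGP1. That line difference was 0.11 (SE 0.17, limma adjusted p = 0.701). The x_at suffix marks probes that may bind unrelated transcripts.

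The transcript that shares a start with NKX2-1 went the same way. SFTA3, a lung-expressed RNA that overlaps NKX2-1 in RefSeq, read 2.27 in DAXX-KD and 2.70 in control NCI-H727, against 10.17 in DAXX-KD and 10.46 in control QGP1. Its line difference of -7.83 (SE 0.13, limma adjusted p = 0.000223) comes from 1 probe set. As the genes overlap, whether the probes of one read transcripts of the other was not tested. NKX2-1-AS1, the antisense RNA of the locus, differed by -0.51 (limma adjusted p = 0.0701).

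RefSeq lists 2 starts for NKX2-1, and the promoter window of one of them is listed for SFTA3 as well. Both windows are shown, since a shared start is the sequence these 2 transcripts have in common, each from 250 bases before to 50 after the start on the minus strand (GRCh38.p14). The shared window is chr14:36519507-36519806 and the other is chr14:36520183-36520482. Capitals mark matches, on either strand, to CAAGTG (NKX2 family), TGTTTAC (the FOXA family), AGATAA (bound by GATA factors), GTTGCC (an RFX half-site) and TAATTA (homeodomain).
NKX2-1 and SFTA3 shared start: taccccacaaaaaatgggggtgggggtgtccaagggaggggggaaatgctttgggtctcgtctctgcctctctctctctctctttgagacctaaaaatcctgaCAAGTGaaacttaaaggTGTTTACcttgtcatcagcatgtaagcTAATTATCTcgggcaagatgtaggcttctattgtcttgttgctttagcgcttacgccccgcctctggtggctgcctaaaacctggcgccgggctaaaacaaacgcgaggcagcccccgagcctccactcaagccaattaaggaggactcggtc
NKX2-1 other start: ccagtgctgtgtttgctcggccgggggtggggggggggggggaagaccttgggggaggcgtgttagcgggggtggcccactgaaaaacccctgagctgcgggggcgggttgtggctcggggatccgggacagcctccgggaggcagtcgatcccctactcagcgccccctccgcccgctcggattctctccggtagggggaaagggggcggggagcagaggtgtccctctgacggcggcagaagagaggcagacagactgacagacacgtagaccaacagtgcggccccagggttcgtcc
The shared window held CAAGTG at -147, TGTTTAC at -130, and TAATTA at -103 overlapping a minus-strand AGATAA at -100, counted from the start. Of all 35116 listed promoter windows, 11.5% held CAAGTG, 3.42% TGTTTAC, 10.3% AGATAA, 12.2% GTTGCC and 4.84% TAATTA. The other window held 0 matches. The motifs were settled on after the windows had been read, and a match is a run of letters, not a shown binding site.

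RFX6 gave the largest difference in the set, toward NCI-H727. RFX6 acts in endocrine progenitors and beta cells. Its 1 probe set read 9.69 in DAXX-KD NCI-H727 and 9.33 in control NCI-H727, against 3.31 in DAXX-KD QGP1 and 3.18 in control QGP1. The QGP1 values lay under the 4.85 level, at percentiles 14.8 and 12.5 of their arrays. The difference was 6.27 (SE 0.14, 95% interval 5.90 to 6.63, limma adjusted p = 0.000223).

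NKX2-2, which works with other islet factors to set beta-cell identity, read 9.25 in DAXX-KD NCI-H727 and 9.17 in control NCI-H727, against 5.93 in DAXX-KD QGP1 and 4.80 in control QGP1. The QGP1 control lay just under the 4.85 level. The line difference was 3.85 (SE 0.28, 95% interval 3.11 to 4.58, limma adjusted p = 0.00174). It was 3.32 between the DAXX-KD arrays and 4.37 between the control arrays, as the QGP1 arrays themselves differed.

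NKX2-2 also has 2 listed starts, shown because this gene differed both between lines and with the knockdown in QGP1. The windows are chr20:21522640-21522939 and chr20:21512911-21513210, both on the minus strand of GRCh38.p14, with the same 5 motifs in capitals.
NKX2-2 first start: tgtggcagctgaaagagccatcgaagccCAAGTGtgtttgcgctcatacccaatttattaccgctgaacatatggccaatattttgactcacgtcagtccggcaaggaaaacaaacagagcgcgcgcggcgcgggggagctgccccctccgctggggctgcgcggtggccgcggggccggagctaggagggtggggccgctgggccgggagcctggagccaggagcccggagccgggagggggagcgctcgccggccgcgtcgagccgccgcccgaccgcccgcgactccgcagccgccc
NKX2-2 second start: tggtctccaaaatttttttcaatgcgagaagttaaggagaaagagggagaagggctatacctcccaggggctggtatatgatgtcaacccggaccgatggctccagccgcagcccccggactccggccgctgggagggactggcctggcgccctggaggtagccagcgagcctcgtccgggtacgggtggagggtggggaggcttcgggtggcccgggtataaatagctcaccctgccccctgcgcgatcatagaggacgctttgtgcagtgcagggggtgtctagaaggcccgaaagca
The first window held 1 CAAGTG, at -222 from the start, and the second held 0 matches.

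GATA6, a zinc finger factor needed for pancreas formation and for lung epithelium, was higher in NCI-H727 by probe set 210002_at. It read 8.48 in DAXX-KD and 9.08 in control NCI-H727, against 6.71 in DAXX-KD and 7.05 in control QGP1, a 3.74-fold difference (log2 1.90, SE 0.14, limma adjusted p = 0.00183). The 4 values of 229282_at lay between 5.06 and 5.18, and its line difference was 0.08 (95% interval -0.26 to 0.41, limma adjusted p = 0.718). The 2 GATA6 probe sets thus disagree on the line.

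PAX6, a paired-box factor of islet and eye, was lower in NCI-H727 at both of its probe sets. 205646_s_at read 5.67 in DAXX-KD and 5.12 in control NCI-H727, against 6.77 in DAXX-KD and 6.64 in control QGP1, 2.48-fold lower (log2 -1.31, SE 0.16, limma adjusted p = 0.00651). 235795_at read 2.58 and 3.14 in DAXX-KD and control NCI-H727, both under the 4.85 level, against 7.29 and 5.63 in DAXX-KD and control QGP1. Its difference of -3.60 had an SE of 0.53 (limma adjusted p = 0.0112), the widest error of the 14, as DAXX-KD minus control was -0.55 in NCI-H727 and 1.65 in QGP1. The line difference was -4.71 between the DAXX-KD arrays and -2.50 between the control arrays.

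FOXA1 was lower and FOXA2 was not called, although these forkhead proteins are close relatives that overlap in function. FOXA1 at 204667_at read 7.11 in DAXX-KD and 7.18 in control NCI-H727, against 8.34 in DAXX-KD and 8.54 in control QGP1, 2.46-fold lower (log2 -1.30, SE 0.13, limma adjusted p = 0.00403). Its dimmer probe set 237086_at gave -1.27 (SE 0.26, limma adjusted p = 0.0272), with 3 of 4 values under the 4.85 level, and was -0.79 between the DAXX-KD arrays and -1.75 between the control arrays. FOXA2 at 40284_at read 11.10 and 11.21 in DAXX-KD and control NCI-H727, against 10.96 and 10.94 in DAXX-KD and control QGP1. That difference was 0.20 with a 95% interval of -0.14 to 0.55, which leaves out the size of the FOXA1 difference in either direction. The other FOXA2 probe sets gave 0.09 (-0.25 to 0.44) and 0.40 (0.06 to 0.73), with limma adjusted p-values of 0.662 and 0.0884.

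ISL1, a LIM homeodomain factor of islet and neural cells, was 1.57-fold lower in NCI-H727. It read 8.94 in DAXX-KD and 8.82 in control NCI-H727, against 9.46 in DAXX-KD and 9.61 in control QGP1 (log2 -0.66, SE 0.14, limma adjusted p = 0.0322). This was the smallest called difference of the set.

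**Figure D2:**
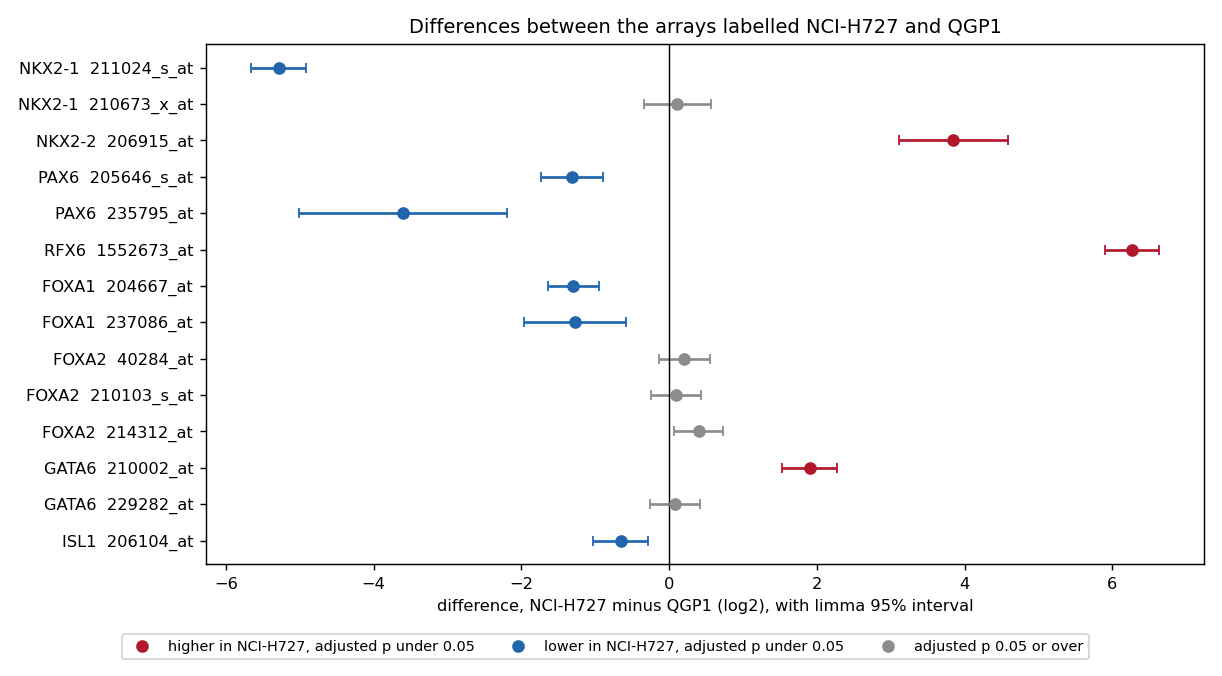
Difference NCI-H727 minus QGP1 (log2, horizontal axis) of the 14 member probe sets, with limma 95% intervals over 2 arrays per labelled line. RFX6 at 6.27 and NKX2-2 at 3.85 stand on one side, NKX2-1 at -5.28 and PAX6 at -3.60 on the other, and 5 probe sets (grey) were not called.

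NKX2-1 and FOXA1 lie on 1 chromosome arm with MBIP, NKX2-8, PAX9, SLC25A21 and MIPOL1 around them, and NKX2-2 and FOXA2 on another with PAX1 between them. Neighbours differed in both directions. Beside NKX2-1, MBIP was lower in NCI-H727 (-1.33, limma adjusted p = 0.00408), NKX2-8 was not called (-0.24, 0.429), and SLC25A21 (1.62, 0.00217) and MIPOL1 (1.28, 0.00392) were higher. Of the 9 listed neighbours on chromosome 14, 2 were higher, 2 lower and 5 not called by their brightest probe set. SSTR1, a somatostatin receptor gene near FOXA1, is among the 5 at 0.22, but its dimmer probe set was called lower at -4.58: both NCI-H727 values lay under the 4.85 level, against 7.11 in DAXX-KD and 7.53 in control QGP1 (limma adjusted p = 0.000917). Of 7 on chromosome 20, 2 were higher (LINC00261, the RNA beside FOXA2, 1.32, and THBD, 1.12), 0 lower and 5 not called. By the brightest probe set 15.5% of all genes were called higher and 16.7% lower. PAX1, a neighbour of NKX2-2, differed by -0.06.

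**Figure D3:**
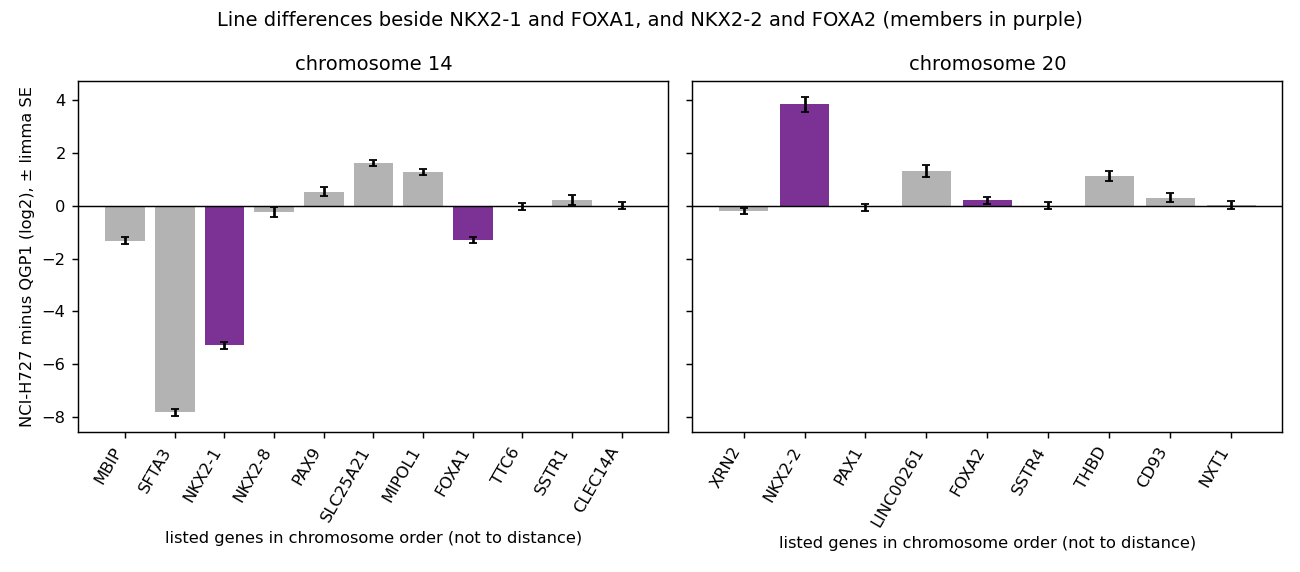
Line difference NCI-H727 minus QGP1 (log2, bars, with limma SE) of listed genes in chromosome order around NKX2-1 and FOXA1 (chromosome 14) and NKX2-2 and FOXA2 (chromosome 20). SFTA3 at -7.83 and NKX2-1 at -5.28 lie side by side, while SLC25A21 and MIPOL1 between NKX2-1 and FOXA1 are above 0. Bars are the brightest probe set of each gene, so the SSTR1 probe set at -4.58 is not drawn.

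Genes downstream of the members were mixed. Of 14 measured lung epithelial genes linked to NKX2-1, 1 was higher and 4 were lower in NCI-H727, with a list median of 0.04 against 0.06 for all genes. Over all genes 15.5% were called higher and 16.7% lower. LAMP3, a lysosomal protein of alveolar type II cells, read 3.99 in both NCI-H727 arrays, against 8.42 in DAXX-KD and 8.76 in control QGP1 (-4.60, limma adjusted p = 0.000312). The mucin MUC1 was lower by 3.18 (adjusted p = 0.000483). CLDN18, a tight-junction protein of lung and stomach, ran the other way at 5.17 (limma adjusted p = 0.000808), higher at 4 of 4 probe sets. The surfactant genes SFTPB (0.04) and SFTPC (0.20) were not called, while the surfactant gene SFTPD was lower (-0.84, limma adjusted p = 0.0141).

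Of 15 measured islet hormone and beta-cell genes, 3 were higher in NCI-H727, 1 was lower and 11 were not called (median 0.11). All genes together had 15.5% called higher and 16.7% lower. TTR, a thyroid hormone carrier made in islets and liver, was 5.68-fold higher (limma adjusted p = 0.00224), and chromogranin A (CHGA) 2.08-fold higher (adjusted p = 0.00631). SST, the hormone somatostatin, was 3.07-fold lower (11.80 in DAXX-KD and 11.87 in control NCI-H727, against 13.07 in DAXX-KD and 13.83 in control QGP1; limma adjusted p = 0.00733). INS, GCG and IAPP lay under the 4.85 level on all 4 arrays.

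Of 12 further islet factors measured, 1 was higher in NCI-H727, 3 were lower and 8 were not called (median 0.14). The shares of all genes called were 15.5% higher and 16.7% lower. GLIS3, a beta-cell zinc finger factor, was higher by 3.57 (limma adjusted p = 0.00213), with its QGP1 values under the 4.85 level. SOX9, a duct and progenitor factor that the developing lung also uses, was lower by 4.82 (adjusted p = 0.000228), and both of its probe sets were lower. RFX3, a partner of RFX6, was lower by 2.35 (adjusted p = 0.00708), and 2 of its 4 probe sets were called. Of 14 lung and airway factors 3 were higher, 3 lower and 8 not called (median -0.25), led by HOPX (2.11, called at 1 of 3 probe sets) and KLF5 (1.10) on the higher side and by GFI1 (-1.26) and FOXJ1 (-1.05) on the lower.

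Relatives and partners of the members split likewise. Of 21 relatives 3 were higher, 4 lower and 14 not called (median 0.06), against 15.5% of all genes higher and 16.7% lower. In the GATA family GATA3 was 2.05-fold higher (limma adjusted p = 0.00882) and GATA2 3.39-fold lower (adjusted p = 0.00409), each by its brightest probe set, while 2 other probe sets of each gene were not called. FOXA3 was 1.81-fold higher (adjusted p = 0.0177). Of 18 genes listed as co-factors 5 were higher, 5 lower and 8 not called (median 0.09). The list also holds genes that are not protein co-factors, namely the RNAs LINC00261 and NKX2-1-AS1 and the secreted ligand SHH. LINC00261 and SHH are among the 5 higher. WWTR1, the coactivator TAZ that binds NKX2-1, was higher by 5.69 and the E-protein TCF4 by 3.10, called at 3 of 3 and 7 of 8 probe sets. The corepressor TLE2 was lower by 2.18 and the E-protein TCF12 by 1.33, the second called at 2 of 4 probe sets.

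**Figure D4:**
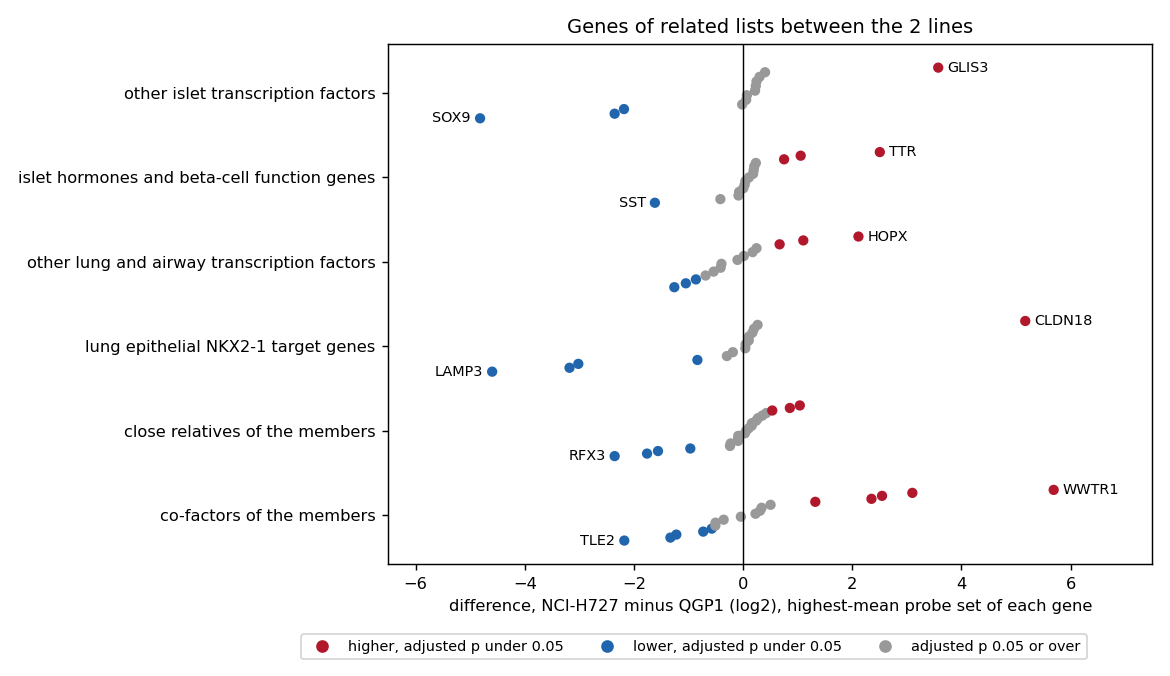
Line difference NCI-H727 minus QGP1 (log2, horizontal axis) of the genes of 6 related lists, 1 point per gene for its brightest probe set on average, coloured by the limma call. Each list has called genes on both sides of 0, with WWTR1 at 5.69 and SOX9 at -4.82 among the outermost.

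Across the 4 arrays, the genes most like RFX6 were NEFM, CPNE8 and CRIP1. Likeness here is the root mean square difference of values centred on each gene's mean, over 4 arrays, and it came to 0.08, 0.13 and 0.14 on the log2 scale. Those most like NKX2-1 were RALYL, IL17RD and MICB, at 0.06, 0.09 and 0.10. With 4 arrays this measure mostly reads the line difference.

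Between the DAXX-KD and control arrays of NCI-H727, 1 of 14 member probe sets differed by at least 1.5-fold, lower in DAXX-KD. The share of all probe sets was 5.74% (1.39% higher, 4.35% lower). Past 2-fold there were 0 of 14, against 1.16% of all (0.11% higher, 1.05% lower). In QGP1 3 of 14 differed by at least 1.5-fold, 2 higher and 1 lower, against 2.93% of all (1.46% in each direction). All 3 were also past 2-fold, against 0.306% of all (0.145% higher, 0.161% lower). The member medians were -0.06 in NCI-H727 and -0.01 in QGP1, and those of all probe sets 0.02 and 0.00. With 1 array per group these are sizes without a test. As a scale for them, the knockdown difference varied between probe sets for the same gene by 0.276 (SD) in NCI-H727 and 0.221 in QGP1, which holds no error between cultures.

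PAX6 probe set 235795_at differed most. It read 7.29 in DAXX-KD QGP1 against 5.63 in its control, a difference of 1.65 or 3.15-fold. In NCI-H727 it read 2.58 in DAXX-KD against 3.14 in control, both under the 4.85 level. At 205646_s_at, the other PAX6 probe set, DAXX-KD minus control was 0.55 in NCI-H727, above the central 95% of all probe sets there (-0.73 to 0.51), and 0.14 in QGP1, so the size in QGP1 rests on 1 probe set.

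NKX2-2 was the second. DAXX-KD QGP1 read 5.93 against 4.80 in control QGP1, a difference of 1.13, with the control just under the 4.85 level. In NCI-H727, where this gene was bright, DAXX-KD read 9.25 against 9.17 in control, a difference of 0.08. FOXA1 at 237086_at was the lower one: DAXX-KD QGP1 read 4.69, under the 4.85 level, against 5.74 in control QGP1, a difference of -1.05. For the brighter FOXA1 probe set DAXX-KD minus control was -0.21 (QGP1) and -0.07 (NCI-H727).

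GATA6 was lower in DAXX-KD of both lines. At 210002_at DAXX-KD NCI-H727 read 8.48 against 9.08 in its control, 1.52-fold lower, and DAXX-KD QGP1 read 6.71 against 7.05 in its control, 1.26-fold lower. Over both lines limma with cell line as a block gave -0.47 (SE 0.14, 95% interval -0.84 to -0.10), with an unadjusted p of 0.0236 and an adjusted p of 0.979, so the difference did not pass. The NCI-H727 difference of -0.60 lay inside the central 95% of all probe sets there, and fell under 1.5-fold after a second quantile normalization or lowess centring. The second GATA6 probe set differed by -0.04 in each line.

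NKX2-1 and RFX6 did not reach 1.5-fold in either line. NKX2-1 at 211024_s_at differed by -0.39 in QGP1 (8.38 in DAXX-KD, 8.77 in control), and RFX6 by 0.36 in NCI-H727 (9.69 in DAXX-KD, 9.33 in control). Both exceeded the SD between probe sets of a gene in their line and lay inside the central 95% of all probe sets. ISL1 differed by 0.12 in NCI-H727 and -0.15 in QGP1. FOXA2 differed by -0.11 to 0.12 in NCI-H727 and by 0.02 to 0.13 in QGP1 over its 3 probe sets. Of the 14 probe sets 4 were higher and 5 lower in DAXX-KD of both lines, and 5 changed sign.

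**Figure D5:**
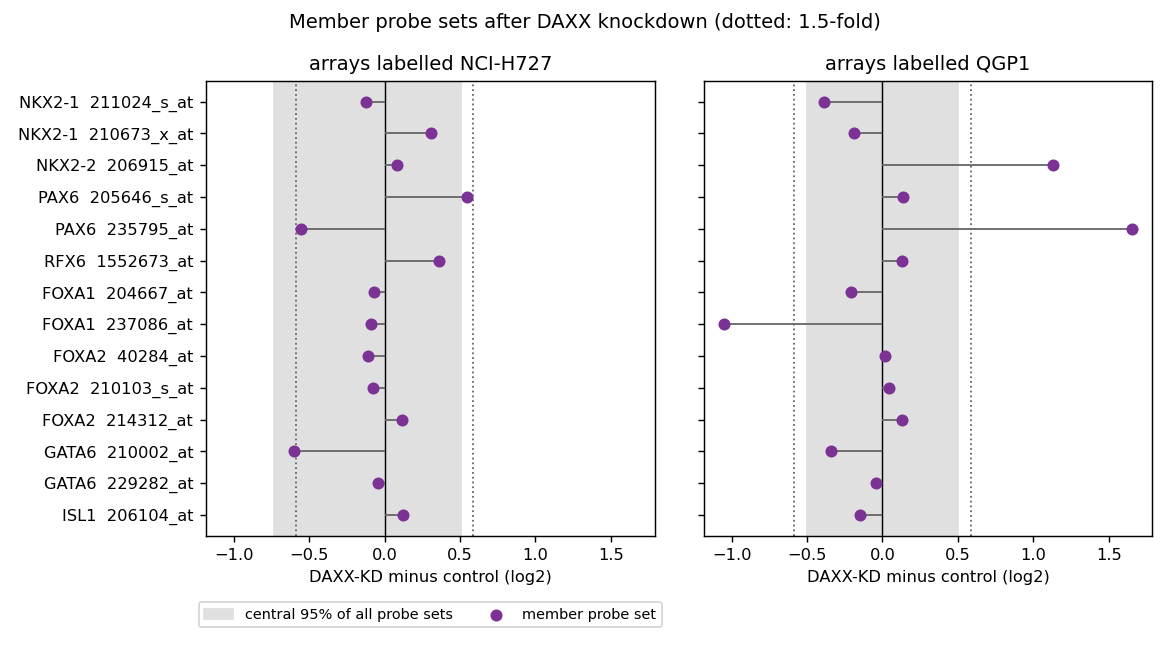
DAXX-KD minus control (log2, horizontal axis) of the 14 member probe sets in each labelled line, 1 array per group, with the central 95% of all probe sets shaded (-0.73 to 0.51 in NCI-H727, -0.50 to 0.50 in QGP1) and 1.5-fold as dotted lines. PAX6 235795_at at 1.65, NKX2-2 at 1.13 and FOXA1 237086_at at -1.05 in QGP1 lie outside the shading, as does PAX6 205646_s_at at 0.55 in NCI-H727.

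Over both lines together, limma called 0 of the 14 member probe sets and 0 of all 54613 (0%) after adjustment. Unadjusted, 1 member probe set (GATA6 210002_at) had a p under 0.05, against 4.86% of all probe sets. DAXX itself, at -1.59 (SE 0.22), had an adjusted p of 0.979 in this fit.

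Among related genes, further islet factors held the most knockdown differences past 1.5-fold in NCI-H727. There were 3 of 12, all lower in DAXX-KD (RFX3, GLIS3 at -0.69 and ST18 at -0.61), against 5.51% of all genes, and 0 of 12 in QGP1, against 3% of all genes. RFX3, the RFX6 partner, read 4.77 in DAXX-KD NCI-H727 against 6.09 in its control, a difference of -1.32, and another RFX3 probe set gave -1.48. In QGP1 these probe sets gave -0.19 and -0.04.

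LINC00261, transcribed beside FOXA2, read 11.88 in DAXX-KD NCI-H727 against 12.80 in its control, 1.89-fold lower. FOXA2 itself gave -0.11 there at its brightest probe set, and LINC00261 gave -0.10 in QGP1. Of the co-factor list 2 of 18 were past 1.5-fold in NCI-H727 (the RNA LINC00261 and TLE4, -0.70) and 0 in QGP1. Over all genes 5.51% were past it in NCI-H727 and 3% in QGP1. Relatives past it were 1 of 21 in each line, RFX3 in NCI-H727 and ISL2 in QGP1, where ISL2 read 5.76 in DAXX-KD against 4.60 in control, the control under the 4.85 level.

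Of the islet hormone genes 1 of 15 was past 1.5-fold in NCI-H727 (TTR, -0.77) and 2 in QGP1 (SST, -0.76, and SLC30A8, -0.61). For this list and those below, the shares of all genes past 1.5-fold were 5.51% in NCI-H727 and 3% in QGP1. Of the NKX2-1-linked lung genes 1 of 14 was past it in NCI-H727 (LPCAT1, -0.72) and 0 in QGP1. Lung factors past it were 1 of 14 in NCI-H727 (FOXJ1, 0.61) and 2 in QGP1 (HOPX, 0.61, and FOXP2, 0.60). Of the endothelial and fibroblast markers 1 of 10 was past it in QGP1, PECAM1 at 1.06 (its other 4 probe sets gave -0.19 to 0.55), in the line where NKX2-2 and PAX6 differed; its part in those values was not tested. No gene of any list was called by limma over both lines, where 0% of all probe sets were.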

How the data were processed

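The authors deposited log2 expression values made with RMA, per the submitters' processing notes (affy 1.40.0, R 3.0.3). RMA corrects background, quantile-normalizes arrays and summarises probes on the log2 scale, so a shift shared by most genes is removed and dim values are compressed. Array medians were 5.31 to 5.36, minima 1.79 to 1.86 and maxima 14.37 to 14.39. Scanner signals over background were not used here, and the number of arrays limits the precision.

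Of 54613 probe sets 41091 had 1 symbol in the platform annotation, 1801 several and 11721 none; only the first were named. The Entrez identifiers of all 14 member probe sets matched RefSeq (GRCh38.p14, used for names and gene order). Promoters came from RefSeq, with windows for 6 of the 8 measured genes.

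The line difference and the joint knockdown difference came from 1 limma fit (limma 3.58.1, R 4.3.3) of cell line and treatment to all probe sets with no filter, two-sided, Benjamini-Hochberg adjusted, with 1 residual and 3.54 prior degrees of freedom. Lists used the probe set of each gene that was brightest on average. The text names every member and, per list, the 2 called genes with the largest line difference on each side. SFTPB, SFTPC, SFTPD, INS, GCG, IAPP, INSM1 and NKX2-1-AS1 were chosen after their values were seen. So were NKX2-8, PAX1, COL1A1, SSTR1 and the genes past 1.5-fold after knockdown. In simulated data of this design with 54613 probe sets, the line comparison recovered 1 of 100 probe sets changed by 1 (log2) and 81 of 100 changed by 2, and 9.89% of its calls were unchanged ones. Only these probe sets differed by line in the simulation, whereas 26.5% of all were called in the data. Benjamini-Hochberg adjustment is stricter where fewer probe sets differ, so this recovery does not give that of the real line comparison. The simulated joint knockdown comparison recovered 0 of 100 probe sets changed by 1 (log2) and 92 of 100 changed by 2. Of its calls 8.91% were unchanged ones. This does not give the recovery of the real joint fit either, where DAXX at -1.59 was not called. Members, lists and tests were chosen with earlier results of these data known. Alternatives were a filter, an intensity trend, other models, normalization and centring, and other choices of probe sets or arrays.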

Additional observations from a re-analysis of the deposited data

Results flagged for a closer look

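PAX6 probe set 235795_at differed in opposite directions with the knockdown in the labelled lines: the difference DAXX-KD minus control was -0.55 in NCI-H727 and 1.65 in QGP1, and the first less the second was -2.21. Both sizes exceeded the SD between probe sets of 1 gene in their line (0.276 and 0.221). The NCI-H727 value lay inside the central 95% of all probe sets there (-0.73 to 0.51) and the QGP1 value outside it (-0.50 to 0.50). Both NCI-H727 values lay under the 4.85 level, there was 1 array per group, and the difference between lines was not tested. The other PAX6 probe set differed by 0.55 in NCI-H727 and 0.14 in QGP1.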

How the results depend on the processing

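Of 14 member probe sets 9 were called between lines with an intensity trend in limma (28.6% of all probe sets called), with cell line alone (28.7%) and after a second quantile normalization (29.7%). Past the filter at the 40th percentile 7 of 12 were called (42.8% of all), and without x_at and s_at probe sets 7 of 10 (22.7%). No difference changed direction in these fits. Averaging all probe sets of a gene, instead of taking the brightest, the line difference was -2.59 for NKX2-1, -2.46 for PAX6 and 0.99 for GATA6, against -5.28, -1.31 and 1.90. Leaving out any 1 array leaves the line difference of the DAXX-KD arrays or of the control arrays, with no test; on DAXX-KD and control arrays NKX2-2 gave 3.32 and 4.37, PAX6 235795_at -4.71 and -2.50 and FOXA1 237086_at -0.79 and -1.75, and no called probe set turned its sign. Of 143 list genes 10 were not called by their brightest probe set while another of theirs was. The count past 1.5-fold after knockdown in NCI-H727, 1 (GATA6), was 0 after a second quantile normalization, 0 after lowess centring and 0 at 2-fold. In QGP1 the count of 3 was 1 (NKX2-2) past the filter on the mean over 4 arrays, because PAX6 235795_at and FOXA1 237086_at are dim in NCI-H727; it was 3 when 1 array of the line had to reach the filter level, an alternative chosen after seeing the data. The joint fit called 0 members with the trend, the filter, the second normalization or without cell line. The fit of cell line and treatment compares DAXX-KD with control within each line; no fit with a replicate block was possible because the labels carry no replicate numbers.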
